A study of Mus musculus with 12 samples.

Results

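The genes described here make cholesterol and fatty acids or export sterols. They are 39 members of 19936 named genes, and each was represented by the probe set with the highest mean among those annotated to that gene alone. RNA was measured in kidneys of mice aged 6 months, on 12 arrays in 4 groups of 3, with 1 mouse per array. OVE-D6 mice were diabetic and homozygous for a deletion of D6, OVE mice were diabetic with wild-type D6, D6 mice were non-diabetic and carried the D6 deletion, and FVB mice were non-diabetic with wild-type D6. D6, encoded by Ackr2, is an atypical chemokine receptor that removes inflammatory chemokines without signalling. All mice were of the FVB strain and ate standard chow. The D6 deletion came from C57BL/6 mice and had been bred into FVB for 10 generations or more, and C57BL/6 DNA beside the deletion can remain after such breeding. Diabetes came from the OVE26 transgene, which is known to express calmodulin in pancreatic beta cells and to cause diabetes from early in life. Each deposited value is a log2 summary of one probe set, and every level below is on that scale. Levels of different genes cannot be compared on these arrays, so each gene was compared with itself across groups. With 3 arrays per group, the number of arrays limited the precision.

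Cells make cholesterol from acetyl-CoA through mevalonate, squalene and lanosterol. The transcription factors SREBP-1 (Srebf1) and SREBP-2 (Srebf2) switch on these enzymes. Their precursors sit in the endoplasmic reticulum bound to the escort protein SCAP. INSIG proteins hold this complex back while sterols are plentiful, and once it is released the factors are cut free and enter the nucleus, where they bind promoters together with NF-Y and Sp1. SREBP-1 mainly drives fatty acid synthesis, and insulin and the oxysterol receptor LXR raise its gene. LXR also drives the export pumps ABCA1 and ABCG1. In kidney, lipid is used as fuel by the tubule, and lipid droplets are a known feature of diabetic kidney disease.

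The promoters of these genes shared short sequence elements, which were searched in RefSeq windows (build GRCm38.p6) of 250 bases before to 50 bases after each transcription start. A window was held for 32 of the 39 members. The NF-Y letters CCAAT, on either strand, stood in at least 1 window of 26 of these 32 members (81.2%), against 41.1% of 27025 genes in the same table. Counted per window, the shares were 62.8% of 43 member windows and 37.4% of all windows. The Sp1 letters GGGCGG were found in 25 members (78.1%, against 38.2% of all genes) and the E-box CACGTG in 7 (21.9%, against 8.09%). The sterol element letters TCACNCCAC were found in 1 member, Hmgcs1, against 1.44% of all genes. An exact pair of AGGTCA sites 4 bases apart, an idealised form of the LXR element, was found in 0 members and in 0.0148% of all genes. Variants of the sterol and LXR elements were not searched, so a missing match does not show that an element is absent. None of these 5 motifs contains another, and a match describes the letters only. By role, CCAAT was found in all 5 mevalonate-step genes with a window, in all 8 genes from lanosterol to cholesterol, in 4 of 5 regulators and in 5 of 6 fatty acid synthesis genes. It was found in 2 of 4 elongation, desaturation and acyl transfer genes and in 1 of 3 sterol export genes.

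The stretches of 100 bases below show where these letters lie in 6 genes that fell with diabetes and in Hmgcs1. Among members with a window, Hmgcs1 was the only one with an exact match to the sterol element letters. The stretches are written 5′ to 3′ on the strand of the gene. Capitals mark CCAAT or its reverse complement ATTGG, and in Hmgcs1 also the match to TCACNCCAC. The stretches lay at chr11:60222690-60222789 (minus strand) for Srebf1, chr15:82147087-82147186 (plus) for Srebf2, chr5:28071179-28071278 (plus) for Insig1, chr8:122443434-122443533 (minus) for Mvd, chr10:76531477-76531576 (plus) for Lss, chr11:120824575-120824674 (minus) for Fasn and chr13:119690144-119690243 (plus) for Hmgcs1, all upstream of the annotated start.
Srebf1: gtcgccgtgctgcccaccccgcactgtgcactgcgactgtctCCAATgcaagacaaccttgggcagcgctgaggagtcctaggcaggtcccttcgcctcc
Srebf2: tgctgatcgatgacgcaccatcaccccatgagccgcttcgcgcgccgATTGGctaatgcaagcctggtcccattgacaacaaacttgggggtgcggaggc
Insig1: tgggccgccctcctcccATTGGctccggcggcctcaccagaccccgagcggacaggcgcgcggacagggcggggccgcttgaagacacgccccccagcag
Mvd: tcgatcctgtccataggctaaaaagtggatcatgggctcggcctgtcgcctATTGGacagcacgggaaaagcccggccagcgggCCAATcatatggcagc
Lss: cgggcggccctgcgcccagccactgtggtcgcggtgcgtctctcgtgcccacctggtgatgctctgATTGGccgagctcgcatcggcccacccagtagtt
Fasn: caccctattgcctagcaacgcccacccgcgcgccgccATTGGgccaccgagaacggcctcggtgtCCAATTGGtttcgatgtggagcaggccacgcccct
Hmgcs1: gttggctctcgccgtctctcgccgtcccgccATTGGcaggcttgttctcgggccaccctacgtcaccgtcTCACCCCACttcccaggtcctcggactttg
Srebf1 has 3 annotated starts with a window, and the one shown is the farthest upstream. The window of the farthest downstream start also held 1 CCAAT match, with its first base at -30, and 2 GGGCGG matches. Fasn held 3 CCAAT matches, 2 of which overlap, and Mvd held 2. The window of Fads2, another gene that fell, held no CCAAT and 1 GGGCGG, and Fads1 had no window in the table.

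The deleted gene did not separate the genotypes on these arrays. Ackr2 read 6.98, 6.91 and 6.88 in OVE-D6, 6.81, 6.83 and 7.04 in OVE, 6.74, 6.75 and 6.92 in D6, and 6.97, 6.91 and 6.83 in FVB, so all groups overlapped. The knockout effect on it averaged over disease state was -0.03 ± 0.06 (limma adjusted p = 0.899). Whether its 1 probe set lies in the deleted part is not given in the sources used here, so these values do not check the genotype labels. Kidney markers were high on every array. Umod, made in the thick ascending limb, lay between 12.80 and 13.31, and Slc34a1, the proximal tubule phosphate transporter, between 13.51 and 13.87. Some arrays also carried markers of tissue that adheres to the kidney. Over a list of 10 fat genes, each array's mean deviation from the mean of all arrays was 0.49, -0.56 and 0.18 in OVE-D6, -0.01, -0.25 and 0.03 in OVE, -0.45, -0.31 and 0.03 in D6, and -0.71, 1.09 and 0.46 in FVB. FVB 2 was highest, and OVE-D6 1 and FVB 3 were near each other. The brown fat gene Ucp1 read 10.09 on FVB 2 and 8.29 on FVB 3, against 4.86 on FVB 1, 5.34 to 7.02 on the D6 arrays and 4.91 to 5.55 on the diabetic arrays. The adrenal enzyme gene Cyp11b1 read 9.93 on OVE-D6 3 and 5.27 to 5.76 on the other 11 arrays. The macrophage list (10 genes) was higher in OVE, with 9 of 10 genes past the test over FVB and a median log2 difference of 1.35, and OVE 3 had the lowest mean of that list among the OVE arrays (0.18, against up to 1.21, relative to the mean of all arrays). The calls without FVB 2, FVB 3, OVE-D6 1, OVE-D6 3 or OVE 3 are given after the results. In whole kidney, fewer cells of a type and less RNA per cell cannot be told apart.

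All 39 members were above the filter on low values and were tested, and 0 had a group mean at or under a noise level of 5.93. That level is the 95th percentile over 1027 genes of olfactory receptors. In the average of both genotypes, 8 of the 39 members fell with diabetes and 0 rose at an adjusted p under 0.05 (limma, adjusted over 16480 genes). These 8 were 20.5% of the members, against 3.16% of all tested genes lower and 4.49% higher. The median log2 difference over all members was -0.10, against -0.01 over all tested genes. The 8 were the regulators Srebf1, Insig1 and Srebf2, the sterol enzymes Mvd and Lss, the fatty acid synthase Fasn, and the desaturases Fads1 and Fads2. Some markers of the kidney tubule fell as well. In the average 2 of 8 proximal tubule genes fell and 0 rose (median -0.10), as did 2 of 6 genes of the loop and distal tubule (median -0.16). Their medians were -0.05 and -0.09 in OVE-D6 against D6, where 0 of either list passed, and -0.17 and -0.26 in OVE against FVB, where 1 and 2 genes fell. Of 6 collecting duct genes, 1 fell and 0 rose in the average, and their median was 0.06. That median was 0.06 in OVE-D6 against D6 and 0.04 in OVE against FVB. The part of tubule cells in the members' levels was not tested. Within one genotype fewer members passed. In OVE against FVB 2 members were lower and 0 higher (background 2.38% lower and 4.9% higher), and in OVE-D6 against D6 1 was lower and 0 higher (background 0.103% lower and 0.182% higher).

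At an unadjusted p under 0.05, 0 members were higher and 16 lower in the average (background 12.5% and 11.5% of all tested genes). In OVE-D6 against D6 these counts were 0 and 9 (background 4.78% and 5.2%), and in OVE against FVB 3 and 12 (background 12.9% and 11.2%). Members whose groups did not overlap were counted as well. All 6 diabetic arrays lay above all 6 non-diabetic arrays for 0 members and below them for 2 (background 1.73% and 1.69%). The OVE-D6 arrays lay all above the D6 arrays for 1 member and all below them for 11 (background 7.72% and 8.68%), and the OVE arrays lay all above the FVB arrays for 3 and all below them for 11 (background 13.6% and 13.5%).

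**Figure D1:**
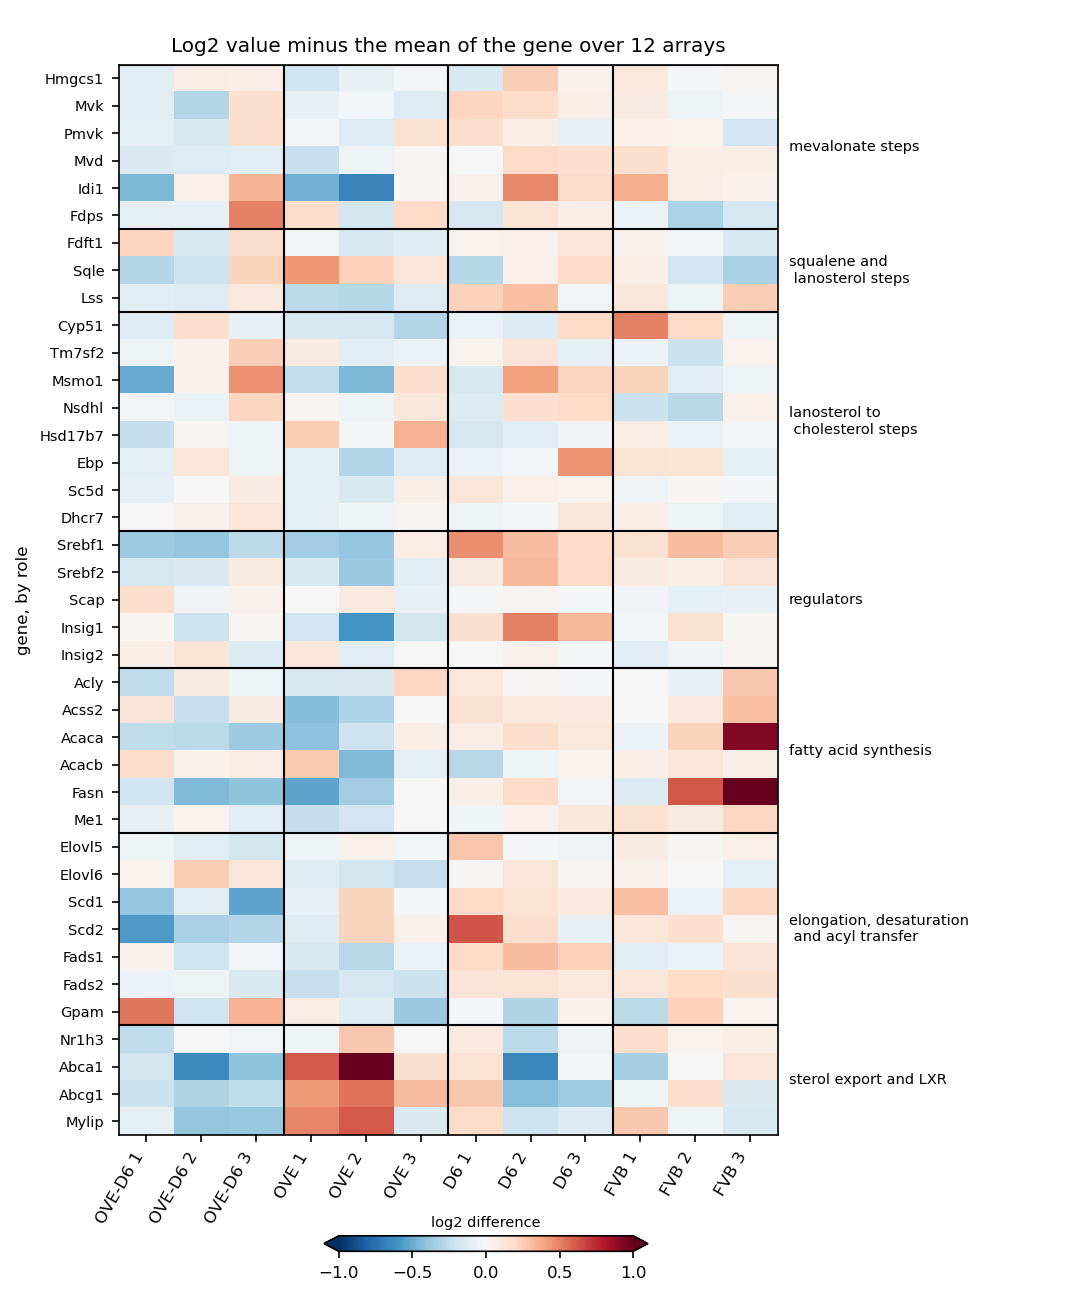
Log2 value of each of the 39 genes on each of the 12 arrays minus the mean of that gene over all arrays, with genes in rows by role and arrays in columns by group. Colours saturate at -1 and 1. Srebf1, Srebf2, Insig1 and Fads2 are lower on most diabetic arrays (left 6 columns), Fasn and Acaca are darkest on FVB 3, and Abca1, Abcg1 and Mylip are highest in OVE.

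Averaged over the 39 genes, each array's deviation from the mean of all arrays lay between -0.11 and -0.01 in OVE-D6 and between -0.08 and -0.01 in OVE, against 0.06 to 0.07 in D6 and 0.03 to 0.08 in FVB. All 6 diabetic arrays thus lay below all 6 non-diabetic arrays in this mean, by a small amount. The comparison averages genes of unlike size of change and is a description.

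Among the 5 regulators the largest averaged difference was that of Srebf1, the gene of SREBP-1. It read 8.11, 8.09 and 8.22 in OVE-D6, 8.13, 8.09 and 8.55 in OVE, 8.94, 8.78 and 8.67 in D6, and 8.63, 8.79 and 8.72 in FVB. All 6 diabetic arrays lay below all 6 non-diabetic arrays, with OVE 3 nearest to them. Srebf1 fell by 0.56 ± 0.08 (log2, SE, n = 6 against 6) in the averaged comparison, 1.47-fold, with a limma adjusted p of 0.00285. It fell by 0.66 ± 0.12 in the OVE-D6 mice relative to D6 (adjusted p = 0.0346) and by 0.46 ± 0.12 in the OVE mice relative to FVB (adjusted p = 0.0348), and was the only member past the test in both genotypes. The difference between those effects was -0.20 ± 0.16 and did not pass (interaction adjusted p = 0.751). Both calls depended on single arrays. The call in OVE-D6 against D6 was lost without any 1 of the FVB, D6 or OVE-D6 arrays (adjusted p = 0.0516 to 0.137). The call in OVE against FVB was lost without any 1 of FVB 1, FVB 2, FVB 3, OVE 1 and OVE 2 (adjusted p = 0.0583 to 0.13), while without OVE 3 the difference was -0.60 with an adjusted p of 0.00173. Both calls were also lost with the mean of the fat list as a covariate, or with the replicate number as a block. Quantile normalisation lost the call in OVE-D6 against D6, and a fit of only the groups compared lost that in OVE against FVB. Srebf1 passed in 11 of 23 alternatives for OVE-D6 against D6 and in 15 of 23 for OVE against FVB. The fit without FVB 2, FVB 3 and OVE-D6 3 together is not among the 23.

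Srebf2, the gene of SREBP-2, read 9.71, 9.74 and 9.97 in OVE-D6, 9.72, 9.51 and 9.78 in OVE, 9.98, 10.21 and 10.08 in D6, and 9.97, 9.95 and 10.01 in FVB. Each diabetic group lay below its own non-diabetic group, though OVE-D6 3, the array with adrenal markers, reached the FVB range. Srebf2 fell by 0.29 ± 0.07 in the average (limma adjusted p = 0.0238) and did not pass within either genotype (-0.28 for OVE-D6 over D6 with adjusted p = 0.308, and -0.30 for OVE over FVB with adjusted p = 0.0761). Insig1, the sterol-sensing anchor and itself an SREBP target, read 9.91, 9.69 and 9.90 in OVE-D6, 9.69, 9.29 and 9.71 in OVE, 10.05, 10.39 and 10.22 in D6, and 9.86, 10.04 and 9.91 in FVB. Again each diabetic group lay below its non-diabetic group, while OVE-D6 overlapped FVB. Insig1 fell by 0.38 ± 0.09 in the average (adjusted p = 0.0217), with -0.39 for OVE-D6 over D6 at adjusted p = 0.268 and -0.37 for OVE over FVB at adjusted p = 0.0843.

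The other regulators did not pass. Insig2, the other anchor gene, read 9.31, 9.38 and 9.11 in OVE-D6, 9.37, 9.13 and 9.25 in OVE, 9.25, 9.29 and 9.23 in D6, and 9.14, 9.21 and 9.27 in FVB, so the 4 groups overlapped. Its averaged difference was 0.03 ± 0.06, and that of the escort gene Scap was 0.07 ± 0.05 (adjusted p = 0.826 and 0.445). Of the 5 regulators, 3 fell and 0 rose in the average, and the median was -0.29.

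**Figure D2:**
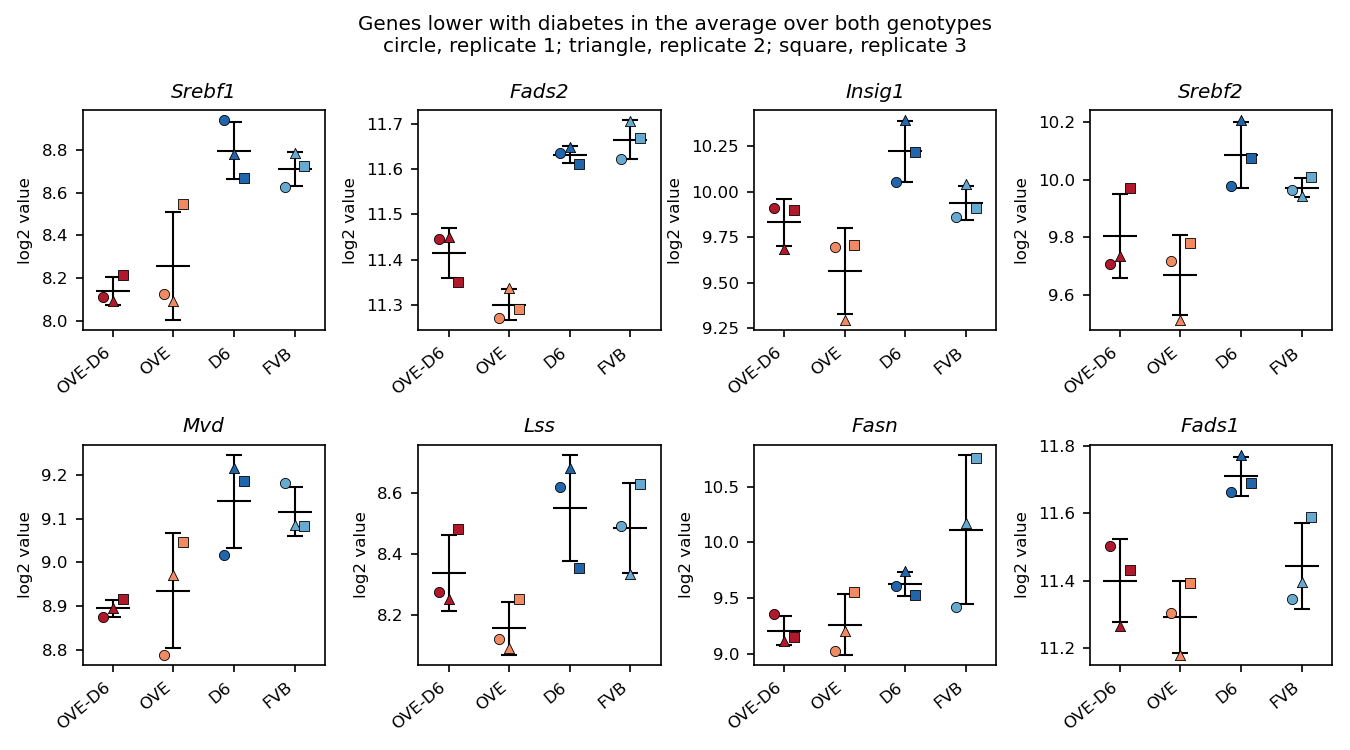
Log2 values of the 8 genes lower with diabetes in the average, by group (OVE-D6, OVE, D6, FVB). Symbols are single arrays (circle, triangle and square for replicates 1, 2 and 3), and bars are the mean and SD of 3 arrays. Srebf1 and Fads2 separate all diabetic from all non-diabetic arrays, and the spread of Fasn is widest in FVB.

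Of the 6 genes of the mevalonate steps, 1 fell and 0 rose in the average. Mvd, the decarboxylase that forms isopentenyl diphosphate, read 8.87, 8.89 and 8.92 in OVE-D6, 8.79, 8.97 and 9.05 in OVE, 9.02, 9.22 and 9.19 in D6, and 9.18, 9.08 and 9.08 in FVB. Its diabetic arrays lay below the non-diabetic arrays of the same genotype, and OVE 3 lay above D6 1. Mvd fell by 0.21 ± 0.06 (limma adjusted p = 0.0458). Mvk, mevalonate kinase, read 8.59, 8.40 and 8.86 in OVE-D6, 8.62, 8.67 and 8.57 in OVE, 8.91, 8.88 and 8.76 in D6, and 8.78, 8.64 and 8.68 in FVB. OVE-D6 overlapped D6 and OVE overlapped FVB, and its averaged difference was -0.16 ± 0.07 (adjusted p = 0.208). Idi1, the isomerase of isopentenyl diphosphate, had a larger averaged difference of -0.40 ± 0.15 that did not pass (adjusted p = 0.118), with -0.50 on its second probe set. Hmgcs1, the synthase at the head of the pathway, differed by -0.08, Pmvk, the next kinase, by -0.02, and Fdps, which makes farnesyl diphosphate, by 0.17, and none passed.

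Among the 3 genes that turn farnesyl diphosphate into lanosterol, 1 fell and 0 rose in the average. Lss, lanosterol synthase, read 8.28, 8.26 and 8.48 in OVE-D6, 8.12, 8.10 and 8.25 in OVE, 8.62, 8.68 and 8.36 in D6, and 8.49, 8.33 and 8.63 in FVB. OVE lay below FVB and D6 on every array, and OVE-D6 3 lay inside the non-diabetic range. Lss fell by 0.27 ± 0.08 (limma adjusted p = 0.0479). Sqle, squalene epoxidase, a rate-setting step of the pathway, ran differently, with 9.09, 9.18 and 9.61 in OVE-D6, 9.82, 9.61 and 9.51 in OVE, 9.10, 9.43 and 9.57 in D6, and 9.45, 9.19 and 9.06 in FVB. OVE lay above FVB on every array, while OVE-D6 and D6 overlapped. The log2 difference of Sqle was 0.41 ± 0.16 in OVE against FVB (adjusted p = 0.137), -0.08 in OVE-D6 against D6 and -0.49 ± 0.22 for the interaction (adjusted p = 0.498), none of which passed. Fdft1, squalene synthase, differed by -0.02 in the average.

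Of the 8 genes from lanosterol to cholesterol, 0 rose and 0 fell in the average, and their median was -0.02. Cyp51, lanosterol demethylase, read 10.52, 10.83 and 10.57 in OVE-D6, 10.49, 10.49 and 10.36 in OVE, 10.58, 10.52 and 10.85 in D6, and 11.15, 10.85 and 10.61 in FVB. OVE lay below every array of the other groups, and OVE-D6 overlapped D6. The differences were -0.42 ± 0.13 in OVE against FVB (adjusted p = 0.0774) and -0.01 ± 0.13 in OVE-D6 against D6 (adjusted p = 0.996). Nsdhl, a sterol dehydrogenase, read 10.04, 10.00 and 10.29 in OVE-D6, 10.10, 10.02 and 10.18 in OVE, 9.93, 10.24 and 10.27 in D6, and 9.86, 9.79 and 10.12 in FVB, with all groups overlapping. The averaged differences of the remaining 6 ran from -0.18 for Ebp, a sterol isomerase, and -0.18 for Msmo1, a methylsterol oxidase, to 0.11 for Hsd17b7, a ketosteroid reductase, with Sc5d, a sterol desaturase, and the sterol reductases Dhcr7 and Tm7sf2 in between.

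Many sterol enzymes had their highest or lowest value on the same array of a group. Of the 17 enzymes from Hmgcs1 to Dhcr7, 12 were highest of the 3 OVE-D6 arrays on OVE-D6 3 (35.4% of all tested genes were highest there) and 12 were lowest on OVE-D6 1 (35% of all tested genes). In OVE, 11 were highest on OVE 3 and 11 lowest on OVE 2 (39.4% and 33.8% of all tested genes). In D6, 11 were lowest on D6 1 (32.6%), and in FVB 13 were highest on FVB 1 (36.3%). Adrenal cortex is a site of cholesterol synthesis, and OVE-D6 3 carried Cyp11b1 at 9.93, Cyp21a1 at 9.16 and Star at 8.87. The mean deviation of a list of 9 adrenal genes was 1.79 on OVE-D6 3, against -0.25 to 0.08 on the other arrays. Of that list, Nr5a1 (6.38) and Fdx1 (8.21) lay within the range of the other arrays. The part of adrenal tissue in the levels of the 17 enzymes on OVE-D6 3 was not tested. Leaving OVE-D6 3 out changed the averaged difference of Msmo1 to -0.29, against -0.18 with it, and that of Fdps to 0.08, against 0.17 with it, and neither passed either way.

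**Figure D3:**
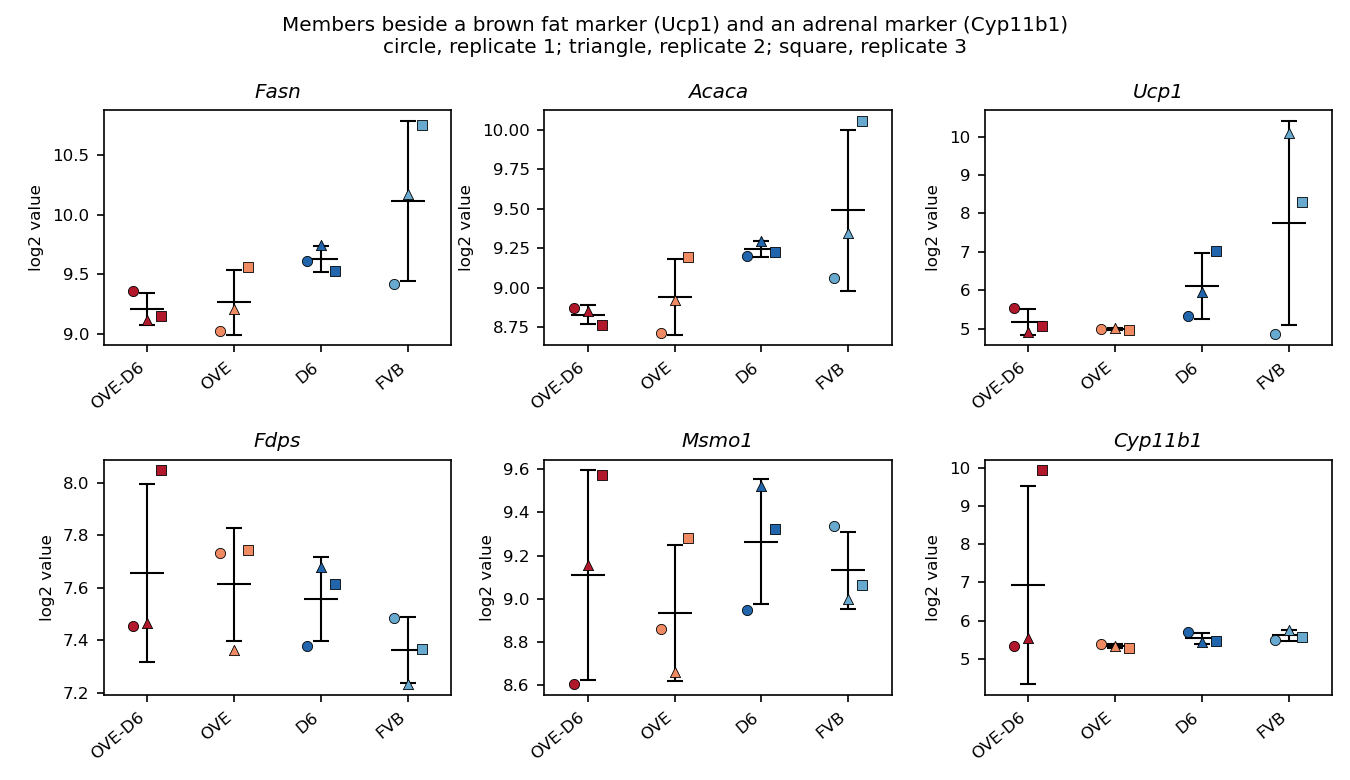
Log2 values by group of Fasn and Acaca beside the brown fat marker Ucp1 (upper row), and of Fdps and Msmo1 beside the adrenal marker Cyp11b1 (lower row). Symbols are single arrays by replicate, and bars are the mean and SD of 3 arrays. FVB 2 and FVB 3 are high in Ucp1 and hold the highest Fasn values, with Ucp1 highest on FVB 2 and Fasn on FVB 3. OVE-D6 3 is high in Cyp11b1 and holds the highest Fdps and Msmo1 values.

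Of the 6 fatty acid synthesis genes, 1 fell and 0 rose in the average, and the median was -0.22. Fasn, fatty acid synthase, read 9.36, 9.11 and 9.15 in OVE-D6, 9.03, 9.20 and 9.56 in OVE, 9.61, 9.74 and 9.53 in D6, and 9.42, 10.17 and 10.76 in FVB. OVE-D6 lay below D6 on every array, and OVE overlapped FVB at OVE 3 and FVB 1. Fasn fell by 0.64 ± 0.18 in the average (limma adjusted p = 0.0485), with -0.42 ± 0.25 for OVE-D6 over D6 at adjusted p = 0.633 and -0.85 ± 0.25 for OVE over FVB at adjusted p = 0.0594. Its highest values stood on FVB 2 and FVB 3, the arrays with Ucp1 at 10.09 and 8.29. Of these arrays, Fasn was higher on FVB 3 and Ucp1 on FVB 2. OVE-D6 1, with a fat list mean of 0.49 against 0.46 on FVB 3, had Fasn at 9.36. Its Ucp1 was 5.55, against 8.29 on FVB 3, so these arrays had similar list means but unlike Ucp1. The part of fat tissue in the level of Fasn was not tested. Without FVB 3 the averaged difference of Fasn was -0.48 (adjusted p = 0.0725). Without FVB 2, FVB 3 and OVE-D6 3, which leaves FVB 1 alone in its group, it was -0.27. With all arrays and the mean of the fat list as a covariate it was -0.62 (adjusted p = 0.0339).

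Acaca, the carboxylase that makes malonyl-CoA for synthesis, followed the same arrays, with 8.87, 8.85 and 8.76 in OVE-D6, 8.71, 8.92 and 9.19 in OVE, 9.20, 9.30 and 9.23 in D6, and 9.06, 9.35 and 10.06 in FVB. Its averaged difference was -0.48 ± 0.14 (limma adjusted p = 0.0547), and -0.25 without the same 3 arrays. Me1, malic enzyme, a source of NADPH, read 11.44, 11.55 and 11.41 in OVE-D6, 11.28, 11.33 and 11.52 in OVE, 11.47, 11.56 and 11.63 in D6, and 11.67, 11.61 and 11.72 in FVB. OVE lay below FVB on every array, and OVE-D6 overlapped D6. Me1 differed by -0.29 ± 0.08 in OVE against FVB (adjusted p = 0.0521) and by -0.19 ± 0.06 in the average (adjusted p = 0.069). Acss2, which makes acetyl-CoA from acetate, differed by -0.25 in the average, Acly, which makes it from citrate, by -0.10, and Acacb, the mitochondrial carboxylase, by 0.01, and none passed.

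Of the 7 genes of elongation, desaturation and acyl transfer, 2 fell and 0 rose in the average. Fads2, a desaturase that starts the making of long polyunsaturated fatty acids, read 11.45, 11.45 and 11.35 in OVE-D6, 11.27, 11.34 and 11.29 in OVE, 11.64, 11.65 and 11.61 in D6, and 11.62, 11.71 and 11.67 in FVB. All diabetic arrays lay below all non-diabetic arrays, and OVE lay below OVE-D6. Fads2 fell by 0.29 ± 0.04 in the average (limma adjusted p = 0.00371) and by 0.36 ± 0.06 in OVE against FVB (adjusted p = 0.00752). In OVE-D6 against D6 the difference was -0.22 ± 0.06 and did not pass (adjusted p = 0.226). The interaction was 0.15 ± 0.09 (adjusted p = 0.637). Fads1, the desaturase that acts after it, read 11.50, 11.26 and 11.43 in OVE-D6, 11.30, 11.18 and 11.39 in OVE, 11.66, 11.77 and 11.69 in D6, and 11.35, 11.39 and 11.59 in FVB. D6 was the high group, and OVE overlapped FVB. Fads1 fell by 0.23 ± 0.06 in the average (adjusted p = 0.0495).

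The stearoyl-CoA desaturases Scd1 and Scd2, which make oleate, had their lowest values in OVE-D6. Scd1 read 12.56, 12.84 and 12.42 in OVE-D6, 12.88, 13.18 and 12.94 in OVE, 13.15, 13.10 and 13.04 in D6, and 13.25, 12.89 and 13.16 in FVB. Scd2 read 9.74, 9.98 and 10.02 in OVE-D6, 10.18, 10.53 and 10.35 in OVE, 10.94, 10.48 and 10.24 in D6, and 10.42, 10.47 and 10.33 in FVB. For both genes every OVE-D6 array lay below every other array, but neither passed in any of the 7 comparisons of the main fit. In OVE-D6 against D6 the differences were -0.49 ± 0.12 for Scd1 and -0.64 ± 0.15 for Scd2 (limma adjusted p = 0.146 and 0.123). In OVE against FVB they were -0.10 and -0.06, and the interactions were -0.39 ± 0.17 and -0.58 ± 0.22 (adjusted p = 0.49 and 0.401). In the average they were -0.29 ± 0.09 and -0.35 ± 0.11 (adjusted p = 0.0603 and 0.0705). The averaged difference of Scd1 did pass with the filter at the 50th percentile, with trend and robust eBayes, with the fat marker covariate, and without FVB 2, OVE 2 or OVE-D6 2, and that of Scd2 passed without D6 3. Elovl5, an elongase of polyunsaturated fatty acids, differed by -0.12 in the average, and Gpam, the acyltransferase at the head of triglyceride synthesis, by 0.09.

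**Figure D4:**
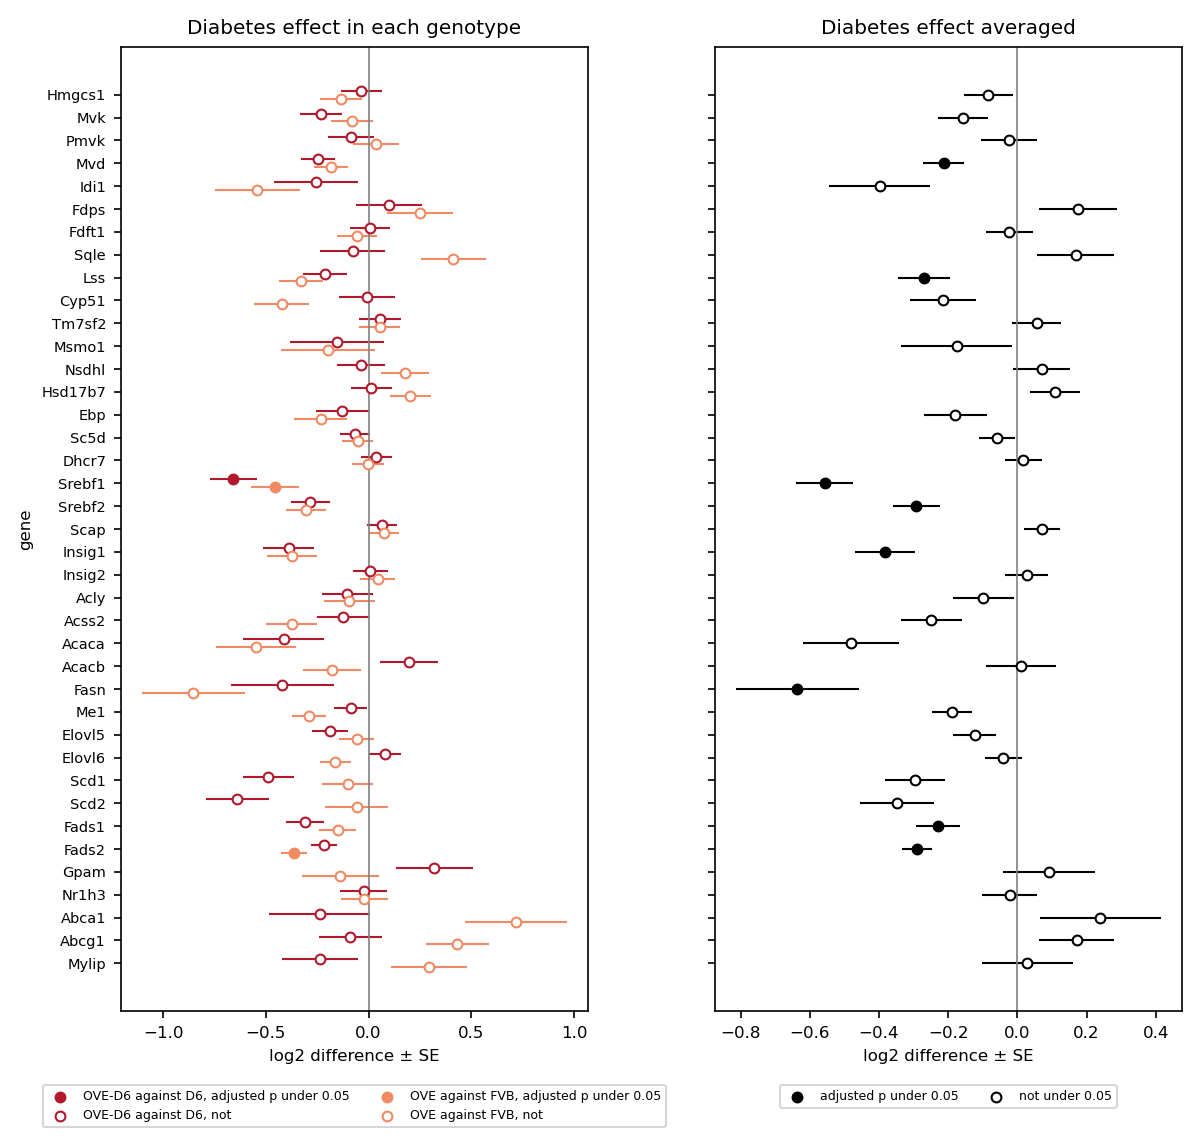
Log2 difference ± SE for each of the 39 genes, for OVE-D6 against D6 and OVE against FVB (left) and for the diabetes effect averaged over genotypes (right). Filled points passed the limma test at an adjusted p under 0.05, open points did not. Most points lie left of 0, Srebf1 is filled for both genotypes, and the 4 widest gaps between the paired points are at Abca1, Scd2, Mylip and Abcg1.

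Loss of D6 was tested separately. In OVE-D6 against OVE, 0 of the 39 members passed the limma test, against 0.231% of all tested genes. At an unadjusted p under 0.05, 2 members were higher and 7 lower (background 6.66% and 8.13% of all tested genes). The OVE-D6 arrays lay all above the OVE arrays for 5 members and all below them for 4 (background 9.37% and 8.24%). The OVE arrays enter this comparison and the diabetes comparison in wild types alike, so the values of the 2 comparisons are not independent. The members with the smallest p were in sterol export. Abca1, which moves cholesterol to apolipoproteins, read 8.97, 8.52 and 8.75 in OVE-D6, 9.77, 10.33 and 9.32 in OVE, 9.30, 8.52 and 9.14 in D6, and 8.83, 9.15 and 9.28 in FVB. OVE lay above every array of the other groups. Abcg1, which moves cholesterol to mature lipoprotein particles, read 8.12, 8.04 and 8.08 in OVE-D6, 8.76, 8.88 and 8.65 in OVE, 8.61, 7.91 and 7.98 in D6, and 8.29, 8.52 and 8.19 in FVB. OVE was again highest on every array, with D6 1 closest to it. The differences between OVE-D6 and OVE were -1.06 ± 0.25 for Abca1 (adjusted p = 0.103) and -0.69 ± 0.15 for Abcg1 (adjusted p = 0.0893).

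Mylip, an LXR-driven ubiquitin ligase that removes lipoprotein receptors, read 9.70, 9.40 and 9.42 in OVE-D6, 10.29, 10.41 and 9.66 in OVE, 9.98, 9.59 and 9.66 in D6, and 10.07, 9.76 and 9.64 in FVB. OVE 1 and OVE 2 were high, and OVE 3 lay with the other groups. Its difference between OVE-D6 and OVE was -0.61 ± 0.19 (limma adjusted p = 0.168). Nr1h3, the gene of LXR alpha itself, ranged from 8.49 to 9.03 over all arrays and differed by -0.17 ± 0.11. Without OVE 3, the OVE array with the lowest macrophage mean, the same comparison passed for 3 members. They were Abca1 (-1.30, adjusted p = 0.00914), Abcg1 (-0.74, adjusted p = 0.0357) and Mylip (-0.84, adjusted p = 0.00829). The share of all tested genes that passed in that fit is not given here. Without D6 1 in the fit, Abcg1 alone passed. The macrophage list had its array means between 0.18 and 1.21 in OVE and between -0.33 and -0.13 in OVE-D6, with 3 of 10 genes lower in OVE-D6 (median log2 difference -1.19). The part of macrophages in the levels of the export genes was not tested.

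**Figure D5:**
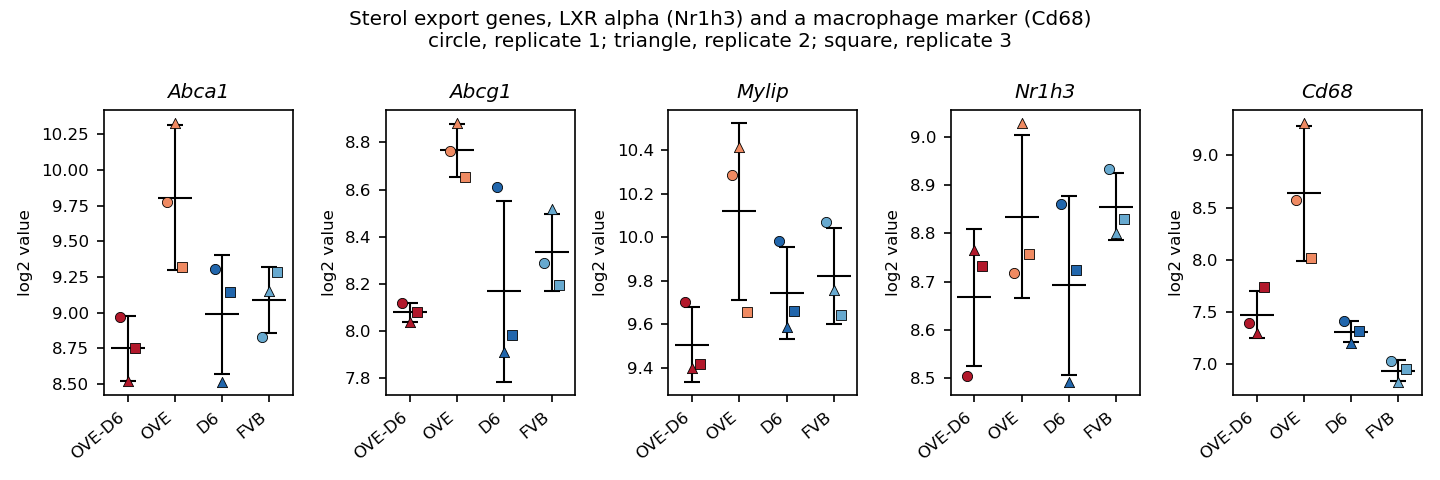
Log2 values by group of Abca1, Abcg1, Mylip and Nr1h3, and of the macrophage marker Cd68. Symbols are single arrays by replicate, and bars are the mean and SD of 3 arrays. Abca1, Abcg1 and Cd68 are highest in OVE, OVE 3 is the lowest OVE array for Abca1, Abcg1, Mylip and Cd68, and Nr1h3 lies between 8.49 and 9.03 over all arrays.

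Elovl6, an elongase of saturated fatty acids, ran the other way in the same comparison. It read 10.00, 10.22 and 10.08 in OVE-D6, 9.85, 9.79 and 9.74 in OVE, 9.98, 10.09 and 10.00 in D6, and 10.01, 9.96 and 9.88 in FVB. OVE was the low group on every array. The difference between OVE-D6 and OVE was 0.31 ± 0.08 (limma adjusted p = 0.112), and the interaction was 0.24 ± 0.11 (adjusted p = 0.49). Scd1 and Scd2, given above, differed by -0.39 and -0.44 between OVE-D6 and OVE (adjusted p = 0.183 and 0.22).

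In D6 against FVB, 0 members passed (background 0.0121%), 2 had an unadjusted p under 0.05 and were higher (background 2.15%), and 0 were lower at that level (background 1.67%). Those 2 were Insig1 (0.28 ± 0.12) and Fads1 (0.27 ± 0.09), each higher on every D6 array than on every FVB array, with a limma adjusted p of 1. The D6 arrays lay all above the FVB arrays for 4 members and all below them for 1 (background 5.59% and 4.2%). Fasn and Nsdhl differed by -0.49 and 0.22. Averaged over disease state, the knockout effect passed for 0 members (background 0.0303%), with 3 higher and 5 lower at an unadjusted p under 0.05 (background 4.36% and 3.93%). The largest averaged differences were -0.58 ± 0.17 for Abca1 (adjusted p = 0.44) and -0.43 ± 0.11 for Abcg1 (adjusted p = 0.353). The interaction passed for 0 members and for 0 of all 16480 genes, while 2 members were positive and 5 negative at an unadjusted p under 0.05 (background 3.71% and 6.29%).

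Of 32 further genes of the same pathways, 26 were in the table and 25 were tested. In OVE against FVB 4 rose and 1 fell (background 4.9% higher and 2.38% lower of all tested genes). The genes that rose were Ch25h, which makes an oxysterol (0.96 ± 0.22, limma adjusted p = 0.0241), Pltp, a phospholipid transfer protein (0.87 ± 0.21, adjusted p = 0.0263), Cyp27a1, which makes another oxysterol (0.49 ± 0.13, adjusted p = 0.0376), and Lpin1, a phosphatidate phosphatase (0.72 ± 0.20, adjusted p = 0.0475). The elongase Elovl7 fell by 0.26 ± 0.07 (adjusted p = 0.0496). In the average, 4 rose and 2 fell (background 4.49% higher and 3.16% lower). Tmem97, a sterol-regulated membrane protein, rose by 0.41 ± 0.09 (adjusted p = 0.0211), Lpin1 by 0.59 ± 0.14 (adjusted p = 0.0254) and Ch25h by 0.66 ± 0.16 (adjusted p = 0.0263), and Elovl7 fell by 0.22 ± 0.05 (adjusted p = 0.0223). Cyp27a1 rose by 0.37 ± 0.09 (adjusted p = 0.0269) and Stard4, a cholesterol carrier, fell by 0.27 ± 0.07 (adjusted p = 0.0412), and these were named after their values were seen. In the remaining comparisons 0 of the 25 passed.

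The averaged diabetes result depended on the arrays used. A fit without FVB 2, FVB 3 and OVE-D6 3 kept 9 arrays, with FVB 1 the only one of its group. Only effect sizes are given for it. The averaged differences were then -0.53 for Srebf1, -0.25 for Fads2, -0.36 for Insig1 and -0.33 for Srebf2. Those of Lss, Mvd and Fads1 were -0.31, -0.25 and -0.19, so all these signs were kept. OVE-D6 1, with a fat mean near that of FVB 3, stayed in that fit. Leaving out 1 array at a time, between 2 and 12 members passed. The share of all tested genes that passed in these fits is not given here, so these counts do not single out the members. Srebf1, Insig1 and Fads2 alone passed without FVB 3 or without OVE-D6 1, these 3 and Srebf2 without OVE-D6 3, and Srebf1, Srebf2, Lss, Fads2 and Scd1 without FVB 2.

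Without OVE 3, 12 members passed in the average, the same 8 and 4 more. The 4 were Acaca (-0.54, limma adjusted p = 0.0298), Idi1 (-0.50, 0.0351), Acss2 (-0.31, 0.0276) and Me1 (-0.23, 0.0208). In OVE against FVB, 9 members passed without it. Lower were Srebf1, Fads2, Me1 (-0.36, adjusted p = 0.0141), Acss2 (-0.50, 0.0198), Idi1 (-0.74, 0.0355), Fasn (adjusted p = 0.0366) and Srebf2 (-0.36, 0.0479), and higher were Abca1 (0.96, 0.0225) and Mylip (0.53, 0.0435). OVE 3 was the OVE array with the lowest macrophage mean, and the part of that in these calls was not tested. The share of all tested genes that passed without OVE 3 is not given here, so these counts do not single out the members.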

How the data were processed

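Per the labels' protocols, 100 ng of RNA per mouse, with an integrity number above 8.8 (average 9.1), was labelled with whole-transcript kits. The deposited table holds log2 values for 35556 probe sets, and the authors' summarisation and normalisation are not given in the sources used here. Array medians lay between 6.84 and 6.93, so no scaling was applied. Of the probe sets, 21789 had 1 gene symbol, 1621 several and 12146 none here, and symbols were updated through the mouse gene table of GRCm38.p6 for 21698 by Entrez identifier and 3 by accession. For the 1001 genes with several probe sets, 4 members among them, the one with the highest mean was used. Genes above their array's 25th percentile on at least 3 arrays (16480 of 19936) were tested with limma 3.58.1 in R 4.3.3, in a group-means model over all 12 arrays with eBayes. The p-values were adjusted by Benjamini-Hochberg, genes with an adjusted p under 0.05 were called, and 7 comparisons were made. Effects are log2 differences with the moderated SE. Groups came from the labels. Each array held RNA of a separate mouse, per the labels. Promoter windows are from RefSeq. The scripts were tested on simulated data. Members, lists and tests were chosen with earlier results of these data known. Values on every array are given for members past the threshold, for those with the smallest p in each comparison and for the main regulators. Other pathway genes were named where they passed. Alternatives changed the filter, normalisation, probe set, variance model, covariates, arrays and threshold, and added the replicate number as a block. Leaving out FVB 2, FVB 3 and OVE-D6 3 together was chosen after seeing the data. Figures used Python 3.11.15, pandas 2.3.3 and matplotlib 3.10.9.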

Additional observations from a re-analysis of the deposited data

Results flagged for a closer look

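In 6 genes the arrays of a group all lay on one side of their comparison group's mean, and the arrays of the matching group all lay on the other side of theirs. The difference was tested in each by the interaction, which subtracts the difference between OVE and FVB from that between OVE-D6 and D6 and equals the D6 loss effect with diabetes minus that without. None passed the limma test. In Abca1 and Abcg1 the 3 OVE-D6 arrays lay below the D6 mean while the 3 OVE arrays lay above the FVB mean, and the interactions were -0.96 (adjusted p = 0.392) and -0.52 (adjusted p = 0.45). In 4 others the 3 OVE-D6 arrays lay above the OVE mean while the 3 D6 arrays lay below the FVB mean, with interactions of 0.42 for Cyp51 (adjusted p = 0.499), 0.38 for Acacb (adjusted p = 0.585), 0.15 for Fads2 (adjusted p = 0.637) and 0.20 for Me1 (adjusted p = 0.611). The diabetes pattern held for 5.13% of the members and 5.95% of all tested genes, and the D6 loss pattern for 10.3% and 9.92%, counting either direction.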

How the results depend on the processing

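Counts are of the 39 members past the limma test. The share of all tested genes that passed is not given for each alternative, so a moved count does not single out the members. The fit without FVB 2, FVB 3 and OVE-D6 3 together keeps only 1 FVB array, and its counts are not given. In OVE against FVB (main count 2), the count was 1 with the replicate block, 1 with only the groups compared in the fit and 10 at an adjusted p under 0.10. With the fat marker covariate the count stayed at 2, but Cyp51 passed in place of Srebf1. It was 1 to 9 with 1 array left out in turn, the 9 without OVE 3. In OVE-D6 against D6 (main count 1), it was 0 with quantile normalisation, with the fat marker covariate and with the replicate block. It was 0 to 1 with 1 array left out, the 0 without any 1 of the FVB, D6 or OVE-D6 arrays. For the averaged diabetes effect (main count 8), it was 4 with no filter on low values, 5 with the replicate block, and 2 to 12 with 1 array left out. It was 2 without D6 2, 3 without FVB 3 or OVE-D6 1, 4 without OVE 1, OVE 2, OVE-D6 2 or OVE-D6 3, 5 without FVB 2 and 12 without OVE 3. In OVE-D6 against OVE (main count 0), it was 1 at an adjusted p under 0.10 and 0 to 3 with 1 array left out, and for the averaged knockout effect 0 to 1, the 1 (Abcg1) without D6 1. In D6 against FVB and for the interaction it was 0 in all alternatives counted here. Leaving arrays out leaves fewer samples, and the other causes were not tested. Of the averaged effects, Srebf1 and Fads2 passed in 22 of 22 alternatives, not counting the fit without FVB 2, FVB 3 and OVE-D6 3. Insig1 passed in 20, Srebf2 in 17, Lss in 10, Mvd in 9, and Fasn and Fads1 in 8, and no called difference changed sign. That fit is also not among the 23 alternatives within a genotype. In OVE against FVB, Fads2 passed in 23 of 23 and Srebf1 in 15. In OVE-D6 against D6, Srebf1 passed in 11 of 23. Same-numbered arrays of different groups had correlations of their deviations from -0.248 to 0.123, with 2 of 18 pairs over 0.1, so the numbers were not taken to pair the mice. The part of adrenal tissue, tubule cells and macrophages in these values was not tested.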

Other observations

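The 4 members with more than 1 probe set of their own gave averaged diabetes differences of the same sign on both. On the probe set used and on the other, these were -0.48 and -0.55 for Acaca, -0.40 and -0.50 for Idi1, -0.19 and -0.21 for Me1, and -0.02 and -0.10 for Fdft1.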
